A study of Homo sapiens with 6 samples.

Results

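Autophagy and lysosome genes, 47 named genes of autophagosome formation, cargo capture and lysosomal digestion, were followed in JJN3, a human multiple myeloma cell line, after the inhibitor WNK463. The members are a list of symbols, chosen with earlier results of these data known and sorted here into 10 roles. All 47 were found among the 60728 genes of the count table. Autophagy encloses cytoplasm in a double membrane that fuses with the lysosome. The ULK1 kinase complex starts the process, a lipid kinase complex marks the membrane, ATG2 and ATG9 proteins bring lipid, and a conjugation machinery attaches ATG8 proteins such as LC3 to the membrane, where cargo receptors bind them. The lysosome digests what arrives with acid hydrolases, at a pH kept by the V-ATPase proton pump, and the MiT/TFE factors TFEB, TFE3 and MITF switch on many of its genes. Plasma cells and myeloma cells make large amounts of secretory protein, and autophagy is known to support them.

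There were 3 groups of 2 RNA-seq libraries, all from wild-type JJN3: a vehicle group with DMSO, a group exposed to WNK463 for 2 h and a group exposed for 6 h. WNK463 blocks the WNK family of kinases, which govern chloride transport and cell volume. The dose is 1 µM in the series design and 5 µM in the sample protocol, and the sources used here do not settle which applies. The sample labels of the DMSO libraries say control in place of an hour, and the series design counts from 0 h, so treatment and hours in culture cannot be told apart. All results are from a single cell line. No label says that replicates were separate cultures, so p-values here reflect no more than how far these libraries lie apart, which may be technical. Total counts ran from 18013790 to 24002291 per library, so a count of 3 was worth 0.128 to 0.166 CPM (counts per library scaled to a common, TMM-adjusted size). The 9 plasma cell markers were all above the filter and summed to between 1794 and 1909 CPM in every group, while single markers moved both ways. At 2 h SDC1 (0.37), PRDM1 (0.33) and JCHAIN (0.22) were called higher and IRF4 (-0.27) lower. At 6 h PRDM1 (0.42), JCHAIN (0.17) and SLAMF7 (1.15) were higher and IRF4 (-0.28), XBP1 (-0.33) and MZB1 (-0.24) lower, all in log2. The 9 monocyte and macrophage markers summed to 1.04 to 1.71 CPM in DMSO, 1.42 to 1.49 CPM at 2 h and 1.73 to 2.26 CPM at 6 h, with CD163 and TYROBP at 0 in all libraries. The 5 epithelial markers, mostly EPCAM, summed to 102 CPM in DMSO, 126 to 130 CPM at 2 h and 119 to 126 CPM at 6 h. Their part in the results was not tested.

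The members held a wide range of levels in vehicle-treated cells. Per exonic length, PSAP, the precursor of the saposins that help degrade sphingolipids, and SQSTM1, the cargo receptor p62, led with 157 and 137 RPKM (CPM per kilobase of exon) in DMSO. NEU1, a sialidase, followed at 39.8 RPKM, LAMP1, an abundant lysosomal membrane glycoprotein, at 38.4 RPKM and MAP1LC3B, the LC3B protein of the autophagosome, at 29.3 RPKM. The median of the 45 members tested was 9.94 RPKM in DMSO against 3.66 RPKM for all tested genes, and 37 of the 45 were above that second value. At 6 h SQSTM1 stood at 202 RPKM and PSAP at 186 RPKM. RPKM used the full exonic length, of which 22.4% is shared with other genes for SQSTM1 and 0% for PSAP. Shared exons add no counts, so SQSTM1 may be understated, and which of the pair led is not settled in any group. The places of other members with shared exons, such as CTSD (53.3%), are uncertain as well. CTSB, a cysteine protease of the lysosome, went from place 14 to place 6 (16.0 and 32.4 RPKM), ATG2A, a lipid transfer protein, from place 33 to place 22 (6.16 and 11.99 RPKM), and WIPI1, which binds the phosphoinositide on the growing membrane, from place 41 to place 33 (2.79 and 7.18 RPKM). Neighbours in this order were not tested against each other. At the low end stood TFEB (2.79 RPKM), HEXA (1.83 RPKM), PIK3C3 (1.57 RPKM) and CTSZ (0.484 RPKM). The places of HEXA and PIK3C3 depend on their long exonic lengths (12290 and 15170 bases, against 5648 for TFEB). In CPM they stood above TFEB in DMSO (22.5 and 23.8, against 15.7). ULK2, a second ULK kinase, had 1 and 0 counts in DMSO, 3 and 0 at 2 h and 0 and 2 at 6 h, and CTSL, a lysosomal endopeptidase, had 0 counts in all 6 libraries, under the 0.128 to 0.166 CPM that 3 counts allow. Both failed the filter on low counts, so 45 members were tested. Together the 47 members took up 0.464% and 0.458% of all counts in DMSO, 0.495% and 0.498% at 2 h and 0.591% and 0.599% at 6 h.

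**Figure D1:**
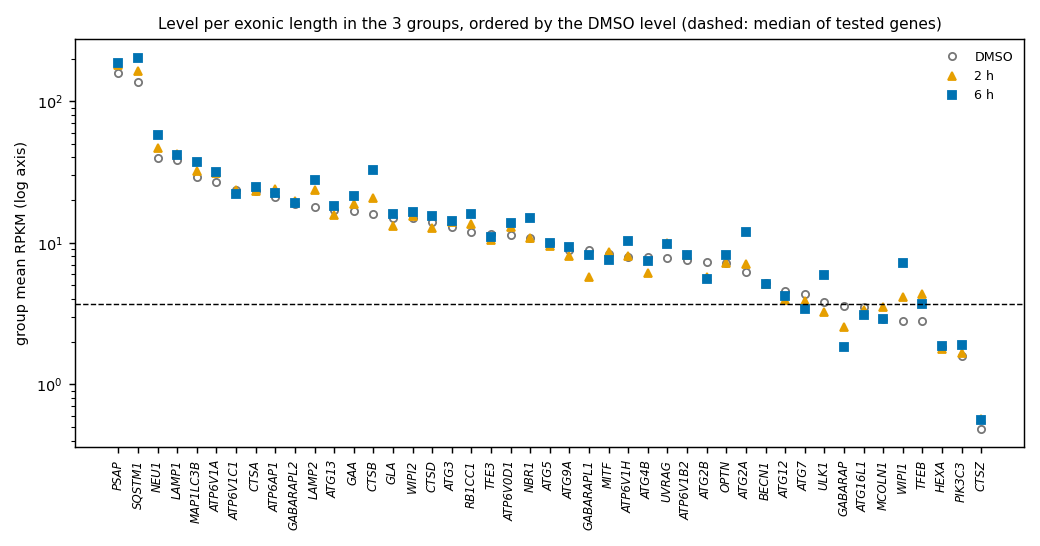
Group mean RPKM on a log axis for the 45 members tested, ordered by the DMSO level, with circles for DMSO, triangles for 2 h and squares for 6 h (n = 2 libraries each). PSAP and SQSTM1 stand above 100 RPKM in every group, CTSB and WIPI1 move up at 6 h, and the dashed line marks the median of all tested genes in DMSO (3.66 RPKM).

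Among the 45 members tested, more were called higher than lower at both times. At 2 h, 9 were called higher and 3 lower, where called means a Benjamini-Hochberg adjusted p under 0.05 in edgeR's quasi-likelihood test. Of all 15548 genes tested 8.68% were called higher and 8.32% lower, against 20.0% and 6.67% of the members. At 6 h, 17 members rose and 3 fell, which is 37.8% and 6.67% of the members, against 18% and 18.6% of all genes. The members had higher levels than most tested genes (median 9.94 against 3.66 RPKM in DMSO). Small changes are called more readily at high counts, and these shares were not matched for level. Members were also chosen with earlier results of these data known, so their shares are no independent finding. The median log2 change of the members was 0.05 at 2 h and 0.13 at 6 h, and that of all tested genes was close to 0 (-0.0049 and -0.0050). Between 6 h and 2 h, 13 members were higher (28.9%) and 0 lower, against 11.1% and 13.1% of all genes. The balance of all genes in that comparison depended on scaling, with 1731 higher and 2041 lower by TMM but 2409 higher and 1523 lower by library size alone, under which 17 members were higher and 0 lower. At an unadjusted p under 0.05 the edgeR count of members lower at 6 h than at 2 h was also 0, and DESeq2 and limma voom called 0 lower. Most changes were small: 8 of the 20 calls at 6 h had an absolute log2 change of at least 0.5, and 2 of at least 1 (WIPI1 and CTSB). Leaving out either 2 h library lowered the 2 h count of rises from 9 to 5. Without 6 h replicate 1 only 1 fall was called at 6 h, and the 13 rises between 2 h and 6 h became 8 without either 2 h library and 7 without 6 h replicate 2. Fewer members were also called higher at 6 h without 6 h replicate 1 or without 6 h replicate 2, with the larger drop without replicate 1. The members' median log2 change at 6 h was then 0.158 and 0.138. In these bulk libraries, fewer cells of a state and less RNA per cell cannot be told apart.

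In time, the members followed a few patterns. UVRAG, TFEB, PSAP and ATP6V1A, 4 members, were higher at both times and not called between 2 h and 6 h. WIPI1, SQSTM1, CTSB, NEU1 and LAMP2, 5 members, were higher at 2 h and higher again at 6 h than at 2 h. ULK1, RB1CC1, ATG2A, MAP1LC3B, NBR1 and ATP6V1H, 6 members, were called from DMSO at 6 h but not at 2 h, and the test of 6 h with 2 h passed in each. GAA and ATP6V0D1 were called at 6 h alone, with no call between the times. ATG4B and GABARAPL1 were lower at 2 h, not called from DMSO at 6 h, and higher at 6 h than at 2 h. ATG2B was lower at both times, ATG7 and GABARAP were called lower at 6 h, and 23 tested members had no call in any comparison. The 2 times share the DMSO libraries, so their changes from DMSO are not independent.

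**Figure D2:**
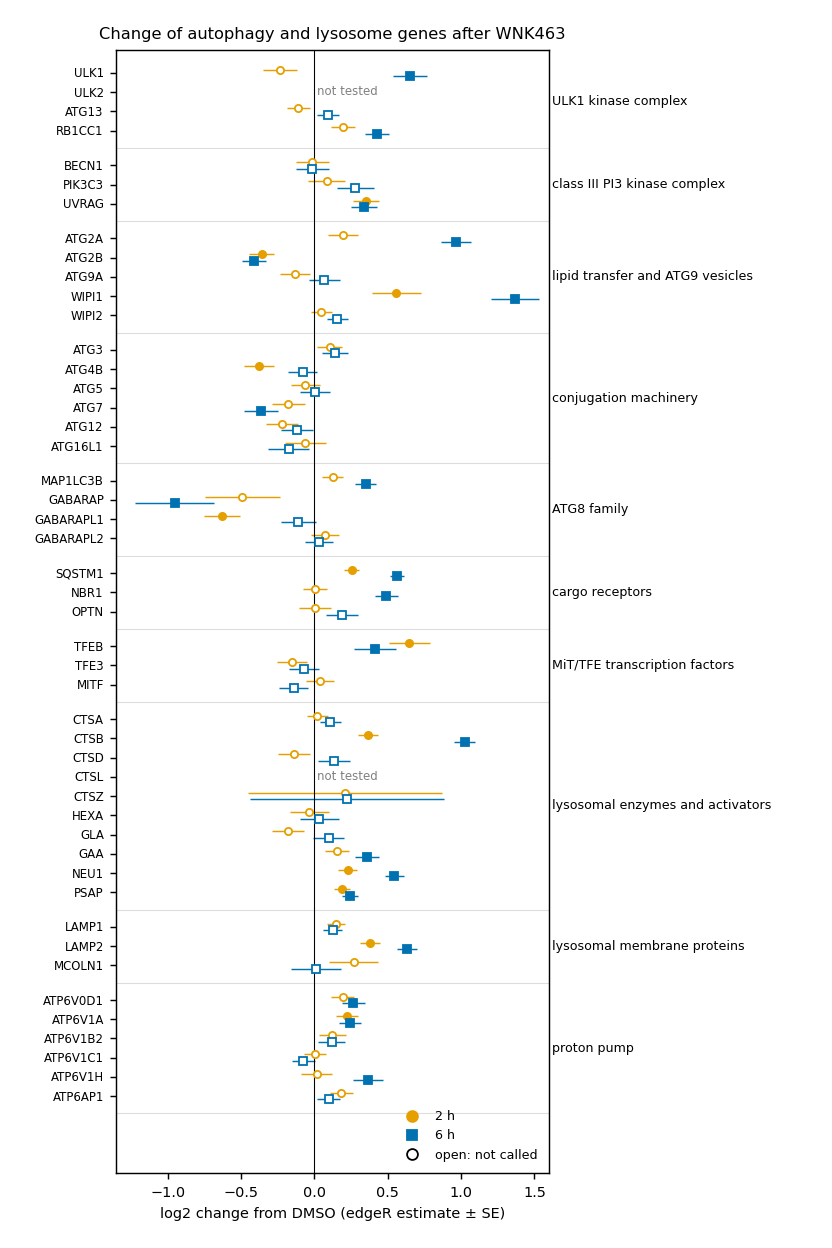
Log2 change from DMSO (edgeR estimate, bars ± SE) of each member at 2 h (circles) and 6 h (squares), grouped by role, with filled symbols for genes called at an adjusted p under 0.05. WIPI1 (1.37), CTSB (1.02) and ATG2A (0.96) stand farthest to the right at 6 h, the conjugation machinery lies near or left of 0, and the ATG8 family is split.

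The ULK1 kinase complex starts autophagosome formation under the control of mTORC1 and AMPK. ULK1, its catalytic kinase, measured 29.3 and 28.5 CPM in DMSO, 23.8 and 25.3 CPM at 2 h, and 47.2 and 43.5 CPM at 6 h. Both 6 h libraries lay above all others, while the 2 h libraries lay slightly below DMSO. The rise at 6 h was 0.65 ± 0.114 SE (log2, adjusted p = 8.86e-06), the 2 h value -0.23 ± 0.118 SE, adjusted p = 0.179, and the difference between the times 0.89 ± 0.115 SE (log2, adjusted p = 5.62e-08). RB1CC1, the scaffold FIP200 of the complex, measured 84.7 and 96.5 CPM in DMSO, 100.4 and 107 CPM at 2 h, and 118 and 125 CPM at 6 h, with both 6 h libraries above both 2 h libraries and those above DMSO. It rose at 6 h by 0.43 ± 0.0807 SE (log2, adjusted p = 3.12e-05). Without DMSO replicate 2 it was also called at 2 h (0.30, adjusted p = 0.00333). The adaptor ATG13 was not called (0.09 at 6 h, adjusted p = 0.382), but its difference between 6 h and 2 h (0.20, adjusted p = 0.0507) was called without DMSO replicate 1 (0.00768), DMSO replicate 2 (0.0110) or 6 h replicate 1 (0.0357). RB1CC1 was higher at 6 h than at 2 h by 0.23 (adjusted p = 0.0270), a call lost without any one of the 4 treated libraries (adjusted p = 0.0704 to 0.276).

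In the class III PI3 kinase complex, which makes the phosphoinositide PI3P that marks the membrane, 1 of 3 members rose at each time. That is 33.3%, against 8.68% of all genes at 2 h and 18% at 6 h, and 3 members are too few to tell these apart. UVRAG, a Beclin partner of endosomal and late autophagic steps, measured 58.6 and 56.3 CPM in DMSO, 72.7 and 73.9 CPM at 2 h, and 74.4 and 70.6 CPM at 6 h. Its 4 treated libraries lay above both DMSO libraries, with changes of 0.35 ± 0.0893 SE (log2, adjusted p = 0.00369) at 2 h and 0.34 ± 0.0895 SE (log2, adjusted p = 0.00236) at 6 h. PIK3C3, the kinase VPS34 itself, stood at 23.8 and 23.8 CPM in DMSO, 23.7 and 26.7 CPM at 2 h, and 27.1 and 30.6 CPM at 6 h and was not called (log2 change 0.28 ± 0.127 SE, adjusted p = 0.0830 at 6 h). BECN1, the Beclin 1 subunit, stayed between 32.1 and 34.02 CPM in all 6 libraries, with log2 changes of -0.01 at both times. Without 2 h replicate 2 the 2 h call of UVRAG was lost (adjusted p = 0.0597), and without 6 h replicate 1 its 6 h call (0.0634).

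Among the proteins that deliver lipid to the growing membrane, both directions were seen. WIPI1, on hg38 at chromosome 17 from 68420948 to 68457513, measured 10.3 and 8.64 CPM in DMSO, 14.96 and 12.96 CPM at 2 h, and 21.2 and 27.6 CPM at 6 h. The 3 groups did not overlap, and each treated group lay above the one before it. The change was 0.56 ± 0.167 SE (log2, adjusted p = 0.0149) at 2 h and 1.37 ± 0.163 SE (log2, adjusted p = 2.51e-09) at 6 h, a rise of 2.58-fold and the largest among the members. Of its exonic length 28.1% is shared with antisense genes, mainly ARSG (24.4%), a sulfatase gene that was itself higher at 6 h (0.60 ± 0.227 SE, adjusted p = 0.0327). Counting ignored strand, and reads that touch exons of both genes are taken to be left out of both, so the level of WIPI1 is uncertain. Without DMSO replicate 2 (adjusted p = 0.113) or 2 h replicate 1 (0.132) its 2 h call was lost.

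ATG2A and ATG2B are paralogous lipid transfer proteins that bridge the endoplasmic reticulum and the growing membrane. ATG2A measured 55.8 and 40.7 CPM in DMSO, 54.8 and 55.3 CPM at 2 h, and 96.6 and 91.2 CPM at 6 h, and the 6 h libraries were far above the rest while the DMSO libraries differed from each other. It rose at 6 h by 0.96 ± 0.102 SE (log2, adjusted p = 1.06e-10), and the 2 h change was 0.19 ± 0.103 SE, adjusted p = 0.213. ATG2B measured 98.6 and 111 CPM in DMSO, 81.1 and 82.4 CPM at 2 h, and 78.9 and 79.1 CPM at 6 h, with all 4 treated libraries below DMSO, and fell by 0.36 ± 0.0829 SE on the log2 scale (adjusted p = 0.00125) at 2 h and 0.41 ± 0.0832 SE on the log2 scale (adjusted p = 8.5e-05) at 6 h. The ratio of ATG2A to ATG2B, in RPKM within a library, was 1.03 and 0.666 in DMSO, 1.23 and 1.22 at 2 h and 2.23 and 2.10 at 6 h. These ratios were not tested. Leaving out DMSO replicate 1 turned ATG2A at 2 h into a call (0.44, adjusted p = 0.000703). The remaining members, WIPI2 (0.16 ± 0.0720 SE, adjusted p = 0.0842 at 6 h) and ATG9A (0.07 ± 0.105 SE, adjusted p = 0.663), the scramblase of the seed vesicles, were not called, though WIPI2 was at 6 h without DMSO replicate 1 (0.18, adjusted p = 0.0311). For ATG9A, 38.8% of the exonic length is shared with an overlapping gene model on the same strand.

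**Figure D3:**
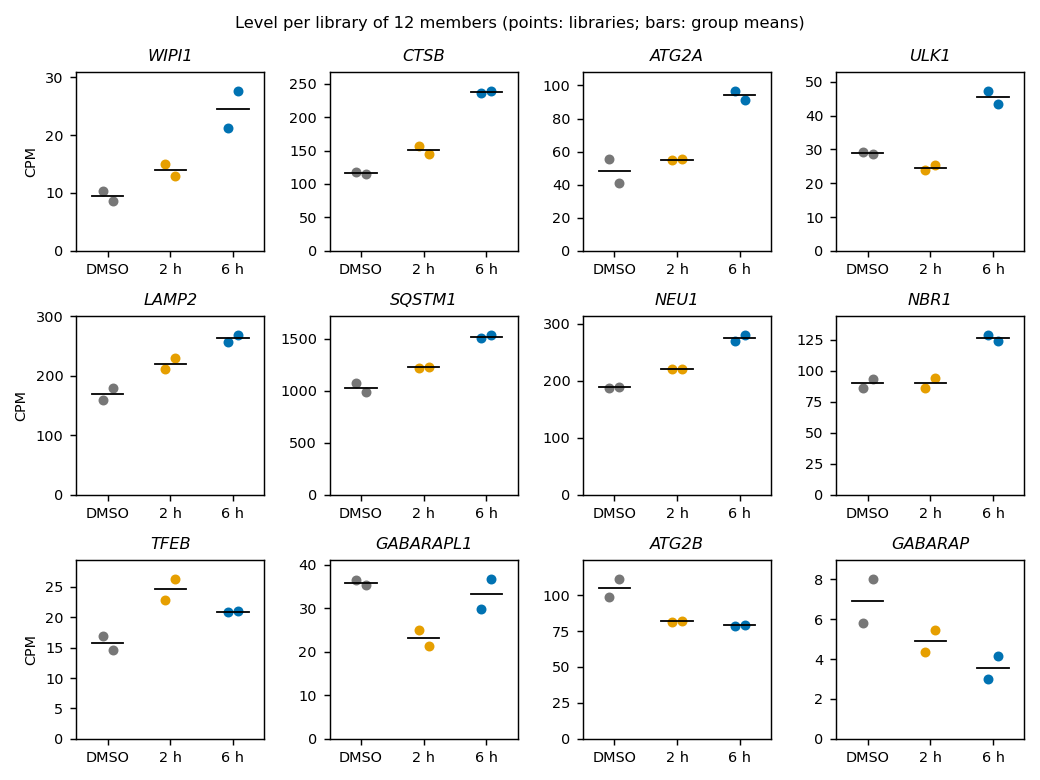
CPM in each library (points) with group means (bars) for 12 members in DMSO and after 2 h and 6 h of WNK463, each panel on its own linear axis from 0. WIPI1, CTSB, LAMP2, SQSTM1 and NEU1 climb over both times, ATG2A, ULK1 and NBR1 are high at 6 h, GABARAPL1 dips at 2 h, and ATG2B and GABARAP are lowest at 6 h.

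The conjugation machinery attaches ATG8 proteins to lipid, and none of its 6 members rose from DMSO in edgeR's test (0 at an unadjusted p under 0.05 at either time, and 0 in DESeq2 and limma voom). Of all genes 8.68% were called higher at 2 h and 18% at 6 h, and 6 members are too few to set 0 apart from those shares. ATG4B, the protease that trims ATG8 proteins, measured 53.5 and 51.7 CPM in DMSO, 42.5 and 38.5 CPM at 2 h, and 50.01 and 49.4 CPM at 6 h. Both 2 h libraries lay below the rest, and the fall was 0.38 ± 0.101 SE on the log2 scale (adjusted p = 0.00621) at 2 h, with -0.08 ± 0.101 SE, adjusted p = 0.575 at 6 h. ATG7, the E1-like enzyme of the pathway, measured 41.2 and 35.96 CPM in DMSO, 31.8 and 36.2 CPM at 2 h, and 30.5 and 29.3 CPM at 6 h and fell by 0.37 ± 0.116 SE on the log2 scale (adjusted p = 0.0109) at 6 h, when both libraries lay below DMSO. For ATG7, 18.1% of the exonic length is shared with the antisense gene VGLL4, which was not called (-0.06 at 6 h). ATG3, the E2-like enzyme, ATG5 and ATG12, which are joined to each other, and ATG16L1, which places them on the membrane, were not called, with log2 changes of 0.14, 0.00, -0.12 and -0.18 at 6 h. Without DMSO replicate 2 ATG3 was called higher at both times (0.24 and 0.27, adjusted p = 0.0425 and 0.0109). The call of ATG4B was lost without 2 h replicate 2 (adjusted p = 0.165), and its return between 2 h and 6 h (0.30, adjusted p = 0.0262) without any one of the 4 treated libraries (0.0505 to 0.296). That of ATG7 was lost without DMSO replicate 1 (0.115), 6 h replicate 1 (0.0501) or 6 h replicate 2 (0.1001).

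The ATG8 proteins coat the autophagosome, and their 4 genes diverged. MAP1LC3B measured 143 and 153 CPM in DMSO, 160.3 and 162 CPM at 2 h, and 188 and 189 CPM at 6 h and rose at 6 h by 0.35 ± 0.0693 SE (log2, adjusted p = 6.47e-05), with the 6 h libraries above all others. Without DMSO replicate 2 it was also called at 2 h (0.18, adjusted p = 0.0389). GABARAPL1, on hg38 at chromosome 12 from 10212458 to 10223128, measured 36.4 and 35.3 CPM in DMSO, 25.1 and 21.4 CPM at 2 h, and 29.7 and 36.7 CPM at 6 h. Its 2 h libraries were the lowest, and one 6 h library reached the DMSO level. The fall at 2 h was 0.63 ± 0.124 SE on the log2 scale (adjusted p = 0.000179), the 6 h value -0.11 ± 0.122 SE, adjusted p = 0.524, and the difference between the times 0.52 ± 0.125 SE (log2, adjusted p = 0.00127). GABARAPL2 was not called (0.07 at 2 h and 0.03 at 6 h). GABARAP measured 5.81 and 8.02 CPM in DMSO, 4.37 and 5.46 CPM at 2 h, and 2.98 and 4.17 CPM at 6 h, and its fall at 6 h was 0.95 ± 0.267 SE on the log2 scale (adjusted p = 0.00379). Of the exonic length of GABARAP 48.2% is shared with other gene models, 35.4% with one on the same strand that was listed at 0, so its level and its fall are uncertain. Its counts were 58 to 170 per library. The call was also lost without DMSO replicate 2 (adjusted p = 0.0881) or 6 h replicate 1 (0.0819). The calls between 2 h and 6 h of MAP1LC3B (0.23, adjusted p = 0.0120) and GABARAPL1 were lost without 2 h replicate 2 (0.106 and 0.0649) or 6 h replicate 2 (0.125 and 0.123), and that of MAP1LC3B also without 2 h replicate 1 (0.131) or 6 h replicate 1 (0.113).

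Cargo receptors hold ubiquitin-tagged material and ATG8 proteins at once, and 2 of the 3 rose at 6 h (66.7%, against 18% of all genes). With 3 members these shares cannot be told apart. SQSTM1 measured 1071 and 987 CPM in DMSO, 1224 and 1231 CPM at 2 h, and 1506 and 1536 CPM at 6 h, so that every treated library was above DMSO and every 6 h library above every 2 h library. The changes were 0.25 ± 0.0495 SE (log2, adjusted p = 0.000153) at 2 h and 0.56 ± 0.0496 SE (log2, adjusted p = 6.49e-13) at 6 h. This gene alone made up 23.1% and 21.4% of the summed CPM of the members in DMSO, and 26.1% and 26.2% at 6 h. The antisense gene MRNIP shares 21.0% of its exonic length and had log2 changes of -0.13 and -0.32, neither called. NBR1, a receptor related to p62, measured 86.6 and 93.6 CPM in DMSO, 86.4 and 94.1 CPM at 2 h, and 129 and 124 CPM at 6 h. Its 2 h libraries overlapped DMSO, and the 6 h libraries were above both, a rise of 0.49 ± 0.0798 SE (log2, adjusted p = 2.34e-06). OPTN, known from the clearance of mitochondria, was not called (0.19 ± 0.109 SE, adjusted p = 0.191 at 6 h). No call of SQSTM1 or NBR1 was lost under the 15 alternatives.

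Of the MiT/TFE transcription factors, TFEB rose at both times. It measured 16.9 and 14.6 CPM in DMSO, 22.9 and 26.3 CPM at 2 h, and 20.9 and 20.98 CPM at 6 h, with all 4 treated libraries above DMSO and the 2 h libraries on top. The change was 0.65 ± 0.140 SE (log2, adjusted p = 0.000585) at 2 h and 0.41 ± 0.141 SE (log2, adjusted p = 0.0182) at 6 h, and between the times -0.23 ± 0.137 SE, adjusted p = 0.227. TFE3 measured 46.6 and 51.1 CPM in DMSO, 44.2 and 43.9 CPM at 2 h, and 44.8 and 48.1 CPM at 6 h and MITF 53.5 and 66.6 CPM in DMSO, 62.5 and 61.1 CPM at 2 h, and 52.99 and 56.04 CPM at 6 h. Neither was called at 2 h (-0.15 and 0.04) or 6 h (-0.07 and -0.14). Per exonic length TFEB made up 13.9% and 10.8% of the summed RPKM of the 3 factors in DMSO, 17.4% and 19.7% at 2 h and 17.03% and 16.2% at 6 h. These factors are controlled largely by phosphorylation and movement into the nucleus, which RNA counts do not measure. The 6 h call of TFEB was lost without DMSO replicate 2 (0.31, adjusted p = 0.147) or without 6 h replicate 1 or 2 (0.0801 and 0.0853). Without DMSO replicate 1 MITF was called lower at 6 h (-0.29, adjusted p = 0.0177).

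MiT/TFE factors bind E-box sequences with the core CACGTG, and a palindrome of 10 bases around that core is known from lysosomal promoters. RefSeq promoter windows (GRCh38.p14, from 250 bases before to 50 after each annotated start) were matched for 37 members, with 47 windows, and not for RB1CC1, UVRAG, CTSB, HEXA, PSAP, LAMP2, ATP6V1A, ATP6V1B2, ATP6V1C1 and ATP6V1H. CACGTG occurred in 8 of the 47 windows (17%), against 7.26% of all 35116 windows of the table. TCACGTGA occurred in 6 (12.8%, against 0.98%), and the palindrome of 10 bases, written out in capitals in the GAA sequence, in 2, those of GAA and MCOLN1 (4.26%, against 0.353%). Each motif is a palindrome, so both strands were searched at once, and the longer ones contain the shorter. Of the 10 matched members called higher at 6 h, 3 held CACGTG (GAA, NEU1 and ATP6V0D1), as did 5 of 22 not called (ATG3, CTSA, CTSD, LAMP1 and MCOLN1) and 0 of 3 called lower. The windows of ULK1, ATG2A, WIPI1, SQSTM1 and TFEB did not hold these letters. The 250 bases before the start of 4 members with TCACGTGA are shown, because 2 of them, GAA and ATP6V0D1, rose at 6 h and 2, MCOLN1 and LAMP1, were not called. They are written 5′ to 3′ along the gene's strand, with the motifs in capitals.
GAA, chr17:80101331-80101580, plus strand: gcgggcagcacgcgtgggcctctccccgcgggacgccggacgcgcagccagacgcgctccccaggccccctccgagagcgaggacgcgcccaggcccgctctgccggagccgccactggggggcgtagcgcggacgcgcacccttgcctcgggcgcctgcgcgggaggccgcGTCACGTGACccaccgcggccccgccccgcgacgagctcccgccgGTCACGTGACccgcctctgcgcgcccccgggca
ATP6V0D1, chr16:67481158-67481407, minus strand: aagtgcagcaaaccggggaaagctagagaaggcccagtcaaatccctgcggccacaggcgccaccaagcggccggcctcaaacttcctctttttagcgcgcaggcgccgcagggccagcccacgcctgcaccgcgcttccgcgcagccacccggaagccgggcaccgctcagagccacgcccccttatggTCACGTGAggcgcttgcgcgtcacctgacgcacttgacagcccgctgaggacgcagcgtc
MCOLN1, chr19:7522374-7522623, plus strand: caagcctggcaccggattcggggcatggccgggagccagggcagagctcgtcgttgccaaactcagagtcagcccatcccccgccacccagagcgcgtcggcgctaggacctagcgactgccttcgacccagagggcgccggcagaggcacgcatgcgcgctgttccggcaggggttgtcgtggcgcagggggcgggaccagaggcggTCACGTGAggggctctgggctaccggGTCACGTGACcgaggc
LAMP1, chr13:113296989-113297238, plus strand: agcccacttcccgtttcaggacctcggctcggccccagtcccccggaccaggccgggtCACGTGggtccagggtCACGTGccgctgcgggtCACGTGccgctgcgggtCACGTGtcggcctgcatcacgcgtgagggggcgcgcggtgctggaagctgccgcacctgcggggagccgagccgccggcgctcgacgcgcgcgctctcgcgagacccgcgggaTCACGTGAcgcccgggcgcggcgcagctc
GAA holds the whole palindrome at 2 places, beginning 78 and 33 bases before the start, and MCOLN1 at 1, beginning 16 bases before it. LAMP1 holds 5 cores in the stretch shown, of 6 in its whole window, the last one lying across the start. A match is a description of the letters and does not show binding. Nor does it tell the MiT/TFE factors from other proteins that bind E-boxes.

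Of the 10 lysosomal enzymes and activators, 9 were tested, and 4 rose at 6 h with 0 falling (0 at an unadjusted p under 0.05, and 0 in DESeq2 and limma voom). These are 44.4% and 0% of the 9, against 18% and 18.6% of all genes, and 9 genes are few for such a comparison. CTSB measured 118 and 115 CPM in DMSO, 157 and 145 CPM at 2 h, and 236 and 239 CPM at 6 h. The groups did not overlap, and the 6 h libraries were 2.03-fold above DMSO in the fit. The change was 0.37 ± 0.0704 SE (log2, adjusted p = 0.000125) at 2 h and 1.02 ± 0.0702 SE (log2, adjusted p = 2.53e-16) at 6 h, and between the times 0.66 ± 0.0692 SE (log2, adjusted p = 3.28e-10). NEU1, which removes sialic acid from glycoproteins and has a core E-box 126 bases before its start, measured 187 and 189.8 CPM in DMSO, 220.4 and 221 CPM at 2 h, and 269 and 280.4 CPM at 6 h. It rose by 0.23 ± 0.0641 SE (log2, adjusted p = 0.00967) at 2 h and 0.54 ± 0.0640 SE (log2, adjusted p = 1.88e-09) at 6 h, again with no overlap between groups. GAA, which breaks down glycogen and whose promoter is shown above, measured 90.5 and 85.5 CPM in DMSO, 102 and 94.1 CPM at 2 h, and 109 and 116 CPM at 6 h and rose at 6 h by 0.36 ± 0.0804 SE (log2, adjusted p = 0.000354). PSAP measured 518 and 484 CPM in DMSO, 577 and 565 CPM at 2 h, and 586 and 598 CPM at 6 h, above DMSO in all 4 treated libraries, with changes of 0.19 (adjusted p = 0.0119) and 0.24 (adjusted p = 0.000423).

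The other enzymes were not called. At 6 h the log2 changes were 0.11 for CTSA, a carboxypeptidase that protects NEU1, 0.13 for the aspartic protease CTSD, 0.03 for HEXA, a subunit of the enzyme that degrades ganglioside GM2, and 0.10 for GLA, an alpha-galactosidase. CTSZ, with 12 to 33 counts per library, had 0.22 ± 0.662 SE. CTSD shares 53.3% of its exonic length with other gene models, CTSA 28.5% and GLA 19.7%, the last with RPL36A. CTSD, GLA and GAA were called higher at 6 h than at 2 h under other settings, for example by limma voom (0.27, 0.27 and 0.21, adjusted p = 0.0439, 0.0466 and 0.0390). They were called as well without DMSO replicate 1 (0.0238, 0.0251 and 0.0118) or DMSO replicate 2 (0.0262, 0.0314 and 0.0153). At 2 h the calls of NEU1 and PSAP were lost without 2 h replicate 1 (adjusted p = 0.0891 and 0.149) or 2 h replicate 2 (0.114 and 0.0844).

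Of the 3 lysosomal membrane proteins, LAMP2 rose at both times (33.3% of the role, against 8.68% of all genes at 2 h and 18% at 6 h). A role of 3 members is too small to tell these shares apart. LAMP2, which protects the membrane and serves in chaperone-mediated autophagy, measured 159 and 179.6 CPM in DMSO, 211 and 230.3 CPM at 2 h, and 257 and 268 CPM at 6 h, with no overlap between the 3 groups. The changes were 0.38 ± 0.0688 SE (log2, adjusted p = 4.62e-05) at 2 h and 0.63 ± 0.0688 SE (log2, adjusted p = 2.43e-10) at 6 h, a fold of 1.55 at the later time. LAMP1, with 6 core E-boxes in its promoter window, measured 221 and 220.4 CPM in DMSO, 236 and 252 CPM at 2 h, and 242 and 239 CPM at 6 h, all treated libraries above DMSO by a small margin, and was not called (0.15 ± 0.0639 SE, adjusted p = 0.112 at 2 h, 0.12 ± 0.0640 SE, adjusted p = 0.127 at 6 h). MCOLN1, a calcium channel of the lysosome, measured 11.4 and 11.5 CPM in DMSO, 14.7 and 12.9 CPM at 2 h, and 11.9 and 11.1 CPM at 6 h and was not called (0.27 ± 0.169 SE, adjusted p = 0.311 at 2 h, 0.01 ± 0.171 SE, adjusted p = 0.977 at 6 h). The rise of LAMP2 from 2 h to 6 h (0.25, adjusted p = 0.00432) was lost without 2 h replicate 1 (0.177) or 6 h replicate 2 (0.110). LAMP1 was called higher at 2 h without DMSO replicate 2 (0.15, adjusted p = 0.0490).

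The V-ATPase pumps protons into the lysosome, with the V1 part in the cytosol splitting ATP and the V0 part in the membrane. Of 6 members of the pump, 3 rose at 6 h (50%, against 18% of all genes), all by less than 0.5 on the log2 scale. That share rests on 6 genes, too few to set it apart from the share of all genes. Of 15 further pump genes tested, 20% were called higher and 13.3% lower at 6 h. ATP6V1H, the regulatory H subunit, measured 38.7 and 42.5 CPM in DMSO, 41.4 and 40.7 CPM at 2 h, and 53.04 and 51.7 CPM at 6 h, and only the 6 h libraries were set apart, with a change of 0.37 ± 0.103 SE (log2, adjusted p = 0.00400). ATP6V1A, the ATP-splitting A subunit, measured 126 and 147 CPM in DMSO, 163 and 156 CPM at 2 h, and 165 and 158 CPM at 6 h and rose by 0.22 ± 0.0741 SE (log2, adjusted p = 0.0295) at 2 h and 0.24 ± 0.0741 SE (log2, adjusted p = 0.00819) at 6 h, with both DMSO libraries below the treated ones and replicate 1 the lowest. ATP6V0D1, which links the V0 ring to the stalk, measured 91.4 and 94.6 CPM in DMSO, 104 and 108 CPM at 2 h, and 115 and 108 CPM at 6 h and rose at 6 h by 0.26 ± 0.0786 SE (log2, adjusted p = 0.00655), with every treated library above DMSO. It was called at 2 h as well without DMSO replicate 2 (0.23, adjusted p = 0.0359). ATP6V1B2 (0.12), ATP6V1C1 (-0.08) and the accessory protein ATP6AP1 (0.10) were not called at 6 h. At 6 h the calls of ATP6V1H (adjusted p = 0.0533), ATP6V1A (0.119) and ATP6V0D1 (0.142) were lost without 6 h replicate 1, and that of ATP6V1A also without DMSO replicate 1 (0.14, adjusted p = 0.110). At 2 h ATP6V1A was lost under 8 of 15 alternatives (adjusted p up to 0.237). The change of ATP6V1H between 2 h and 6 h (0.35, adjusted p = 0.00847) was lost without any one of the 4 treated libraries (0.0560 to 0.0990). Without DMSO replicate 1 ATP6V1C1 was called lower at 6 h (-0.19, adjusted p = 0.0232) and ATP6AP1 higher at 2 h (0.23, adjusted p = 0.0294).

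The other genes of these pathways, 142 genes in 5 lists with 131 tested, were also called higher more often than lower at 6 h. Like the members, these lists were chosen with earlier results of these data known, so they give no independent support. At 2 h, 11 were higher (8.40%) and 5 lower (3.82%), against 8.68% and 8.32% of all genes, so the share called higher was at the background. At 6 h, 37 were higher (28.2%) and 12 lower (9.16%), against 18% and 18.6%. The genes named from these lists are those with the smallest adjusted p, not the largest changes. Among 37 further autophagy genes 10 rose at 6 h and 5 fell. TP53INP2, which helps recruit LC3 to the membrane (1.502), SH3GLB1, a membrane-bending partner of UVRAG (0.65), and the receptor TAX1BP1 (0.46) rose. TECPR1 (-0.67), the tethering subunit VPS41 (-0.29) and the fusion protein VAMP8 (-0.51) fell. Of 36 further lysosomal enzymes and cofactors 13 rose and 1, CTSC (-0.15), fell. The rises with the smallest adjusted p were those of the fucosidase FUCA1 (0.64), the protease LGMN (0.39) and the sphingomyelinase SMPD1 (0.98). Of 27 membrane and sorting genes 7 rose, among them, by smallest adjusted p, the cholesterol exporter NPC1 (0.78), the mannose-6-phosphate receptor IGF2R (0.40) and the sialic acid transporter SLC17A5 (0.74), and 2 fell, TPCN1 (-0.53) and TMEM192 (-0.47).

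Of 15 further proton pump genes 3 rose at 6 h, ATP6V0A1 (0.32), ATP6V1E1 (0.35) and ATP6V0A2 (0.25), and 2 fell, TCIRG1 (-0.33) and ATP6V0B (-0.17). These shares, 20% and 13.3%, lay near the 18% and 18.6% of all genes. TCIRG1 and ATP6V0A1 encode alternative forms of the same V0 subunit. A list of 16 genes, made up of regulators of TFEB and its relative TFEC, had 4 rises at 6 h (25%) and 2 falls (12.5%). PPP3CA, a catalytic subunit of calcineurin, the phosphatase that can activate TFEB, rose by 0.43, and PPP3CB, the alternative catalytic subunit, fell (-0.53). The folliculin partners FNIP1 (0.60) and FNIP2 (0.41) rose. LAMTOR4 of the complex that holds mTORC1 at the lysosome was called lower (-0.37). It measured 30.98 and 21.99 CPM in DMSO and 22.07 and 18.85 CPM at 6 h, so the groups overlapped. At 2 h this list had 2 rises, PPP3CA (0.32) and FNIP1 (0.38).

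**Figure D4:**
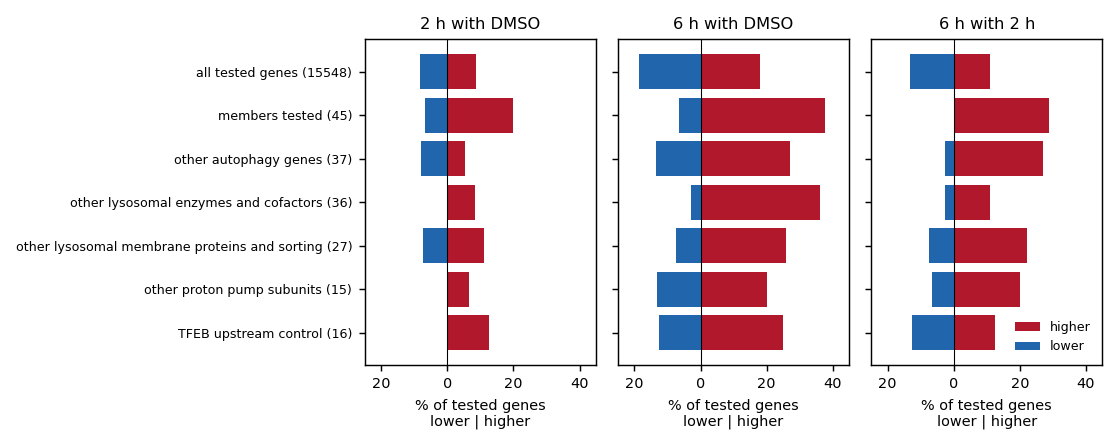
Share of tested genes called higher (right of 0) and lower (left of 0) in each comparison, for all genes, the members and 5 lists of other pathway genes, with the number tested in brackets. At 6 h against DMSO 37.8% of the members and 36.1% of the other lysosomal enzymes are called higher, against 18% of all genes, and the TFEB control list is split in the comparison of 6 h with 2 h (12.5% each way).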

How the data were processed

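RNA of 6 JJN3 libraries was sequenced. The authors' deposited values are raw counts of fragments over exons, from featureCounts 2.0.0 and GENCODE 34, ignoring strand, from read pairs of mapping quality 20 or more, per the file headers. The header names no option for reads that touch more than 1 gene, which featureCounts then leaves out, so exons shared between genes add nothing. Trimmomatic, STAR and hg38 are named in the submitters' processing notes, with no version number. A record broken over several lines was rejoined. Symbols came from a table of gene names, with 60415 of 60728 identifiers matched.

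Counts were tested in R 4.3.3 with edgeR 4.0.16 (glmQLFit, TMM factors, filterByExpr) in one fit of all libraries, which left 15548 genes, with Benjamini-Hochberg adjustment over all of them. SEs were derived from the F statistic. RPKM used the deposited exonic lengths. The spread of a gene was estimated with 42.8 prior degrees of freedom and 3 of its own. The 2 replicates of each group differed beyond counting noise (chi-square divided by its degrees of freedom, 3.60 to 9.23), so no library was counted as a duplicate. The procedure was tested on simulated data. The 15 alternatives covered scaling (RLE, library size alone), filtering (none, mean of at least 1 CPM), the tool (DESeq2 1.42.0, or voom of limma 3.58.1), a stricter threshold of 0.01, a fit restricted to the pair of groups, the replicate number as block, and leaving out each library, where the lone library of a group is assumed to vary like the others. Members and lists were chosen with earlier results of these data known. Every member is named, per-library values are given for those called with an absolute log2 change of at least 0.5, for the MiT/TFE factors and for at least 2 members of each role, and other pathway genes are the up to 3 in each direction with the smallest adjusted p. Figures used Python 3.11.15 and matplotlib 3.10.9.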

Additional observations from a re-analysis of the deposited data

Results flagged for a closer look

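In 13 members the change from DMSO differed between 2 h and 6 h by edgeR's test of 6 h with 2 h, each in the direction of a higher level at 6 h. That is 28.9% of the 45 members tested, against 11.1% of all genes called higher and 13.1% lower. The differences, in log2, were 0.89 for ULK1, 0.23 for RB1CC1, 0.77 for ATG2A, 0.81 for WIPI1, 0.30 for ATG4B, 0.23 for MAP1LC3B, 0.52 for GABARAPL1, 0.31 for SQSTM1, 0.49 for NBR1, 0.66 for CTSB, 0.32 for NEU1, 0.25 for LAMP2 and 0.35 for ATP6V1H. ULK1, ATG4B and GABARAPL1 had 2 h values below DMSO (-0.23, -0.38 and -0.63), of which that of ULK1 was not called. The calls of RB1CC1, ATG4B, MAP1LC3B, GABARAPL1, LAMP2 and ATP6V1H between the times were each lost when a single library was left out, as given under their roles. With 2 libraries a group, no single library could be examined as standing apart.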

How the results depend on the processing

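Of the 45 calls of members in the 3 comparisons, 26 held under all 15 alternatives and 19 were lost under at least 1, and no called change turned around. The members' median log2 change stayed above 0 under every alternative (0.01 to 0.09 at 2 h, 0.13 to 0.17 at 6 h, 0.08 to 0.16 for 6 h with 2 h). Leaving out a library gave 5 to 13 members higher at 2 h, 1 to 4 lower at 6 h and 7 to 17 higher at 6 h than at 2 h. Over all genes it gave 776 to 1589 higher and 751 to 1322 lower at 2 h, and 1022 to 2171 higher and 1262 to 2557 lower for 6 h with 2 h. Members called higher at 6 h were likewise fewer without 6 h replicate 1 or without 6 h replicate 2. At an adjusted p under 0.01, 804 genes were higher and 756 lower at 2 h, and 1103 higher for 6 h with 2 h. With the replicate number as a block, 9 and 3 members were called at 2 h, 17 and 3 at 6 h, and 13 and 0 between the times, the counts of the fit without it. Replicates of the same number did not deviate together (correlations of -0.0381 to -0.0054), so no pairing by number was seen. Counting noise enters these correlations, so they cannot show that the libraries were unpaired. The letters A and B of the count columns go with the replicate number, and no label says what they stand for. Scaling by library size alone moved the median gene by at most 0.07. The smallest change of a member called at 6 h was 0.24, and for CTSZ, with 12 to 33 counts per library and an SE of 0.662, changes of that size were not detectable at this depth.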
